A study of Mus musculus with 14 samples.

Results

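The 10 genes described here encode receptors for bacterial products and the proteins that serve them in the ileum of young mice: Cd14, Ly96, Tlr4, Tlr2, Tlr5, Tlr3, Tlr9, Nod1, Nod2 and Myd88. They were chosen by symbol, as the 10 rows of these names among the 46855 gene symbols of the deposited table, and with results of both comparisons already known. Their values are therefore given as a description, and the adjusted p-values place each gene in a fit across all genes and are not independent support. The tissue was whole ileum, the end of the small intestine, from wild-type (WT) mice of the inbred strain C57BL/6N, and 14 libraries were made. The groups were untreated mice at postnatal day 24 (P24, 4 libraries), untreated mice at day 14 (P14, 4 libraries), mice given recombinant mouse IL-22 into the peritoneum (rmIl22, 3 libraries) and mice given phosphate-buffered saline alone (PBS, 3 libraries). The dose of IL-22 was 0.1 µg per g body weight in 100 µL, the saline volume was 100 µL, and both were given on days 14 and 15 before tissue was taken on day 16. The deposited age field disagrees, with day 24 for rmIl22 and day 14 for PBS, and groups were taken from the titles. Day 14 falls in suckling and day 24 after weaning, so the first comparison asks what differs between those stages and the second what IL-22, a cytokine that acts on epithelial cells, changes before weaning. The labels call the replicates biological without naming litters or cages, and the p-values measure the spread between these libraries.

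Toll-like receptors (TLRs) are membrane proteins that bind conserved parts of microbes. Those on the cell surface bind bacterial envelope components or flagellin, and those in endosomes bind nucleic acids. TLR4 binds lipopolysaccharide only together with MD-2, the product of Ly96, and CD14 hands lipopolysaccharide to that pair. NOD1 and NOD2 detect fragments of peptidoglycan in the cytosol. Most TLRs signal through the adaptor MYD88 to the transcription factor NF-kB. In the gut these receptors are found on macrophages and dendritic cells and on several kinds of epithelial cell. Tlr3 is the exception among the 10, since its receptor binds double-stranded RNA, as made by many viruses, and is not specific to bacteria.

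Depth was worked out from the deposited TPM (transcript abundance, a level corrected for gene length and scaled to the same total in every library), because each value is a whole number of reads times a constant of its gene and library. The libraries held 35.6 to 46.5 M reads assigned to genes. Xist, the RNA of the inactive X chromosome, was at 28.4 to 73.0 TPM in P24 libraries 2, 6 and 8, P14 libraries 4 and 5 and rmIl22 libraries 2 and 3. It was at 0.0703 to 0.160 TPM in the other 7 libraries, which include all 3 PBS libraries. Neutrophil markers were high in rmIl22 library 2, where the 7 genes summed to 1081 TPM, against 18.0 TPM in library 1 and 198 TPM in library 3 and 27.5 to 98.9 TPM in the PBS libraries. All IL-22 results below rest on these libraries, and the value without a library is given where that changed a member's call. Libraries of the untreated groups are named by the number in their column.

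The promoters of the 3 receptor genes with the largest changes in level that have an entry in the RefSeq promoter table are shown, since Tlr3 was higher and Tlr5 lower at P24 and Tlr2 was higher after IL-22. Each runs 5′ to 3′ from 250 bases before to 50 bases after the transcript start of that table, in GRCm38.p6 coordinates, and capitals mark matches to the NF-kB consensus decamer on either strand.
Tlr2, chr3:83841559-83841858, minus strand: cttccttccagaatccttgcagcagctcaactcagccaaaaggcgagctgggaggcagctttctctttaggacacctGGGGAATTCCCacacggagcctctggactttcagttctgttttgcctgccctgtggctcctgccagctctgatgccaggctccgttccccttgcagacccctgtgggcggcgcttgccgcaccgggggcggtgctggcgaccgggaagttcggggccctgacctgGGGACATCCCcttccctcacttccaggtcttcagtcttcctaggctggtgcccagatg
Tlr3, chr8:45410331-45410630, minus strand: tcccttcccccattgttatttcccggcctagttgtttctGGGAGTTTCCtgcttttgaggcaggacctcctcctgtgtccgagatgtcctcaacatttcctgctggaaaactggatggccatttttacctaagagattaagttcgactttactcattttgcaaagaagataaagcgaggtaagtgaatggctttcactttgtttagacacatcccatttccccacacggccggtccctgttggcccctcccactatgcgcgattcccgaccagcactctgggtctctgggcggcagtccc
Tlr5, chr1:182954538-182954837, plus strand: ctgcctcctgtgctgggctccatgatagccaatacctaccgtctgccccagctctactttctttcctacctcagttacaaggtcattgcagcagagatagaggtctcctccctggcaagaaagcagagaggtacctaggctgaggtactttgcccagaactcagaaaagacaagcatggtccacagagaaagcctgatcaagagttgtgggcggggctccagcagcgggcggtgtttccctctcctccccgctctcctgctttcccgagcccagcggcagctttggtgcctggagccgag

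Entries were present for 7 of the 10 genes, with 8 promoters, and Cd14, Ly96 and Tlr4 had none. The NF-kB decamer was found in 8.46% of all 32851 promoters of this length in the table. Among the 7 genes it was found in Tlr2 and Tlr3. In Tlr2 the matches lay at -173 to -164 and -172 to -163, which overlap, and at -8 to 2, and in Tlr3 the match lay at -211 to -202 (position 1 is the table's transcript start, which for Tlr2 and Tlr3 lies inside the GENCODE gene span given below). The STAT motif TTCNNNGAA, searched on both strands, was in 8.30% of all promoters. It was found in Myd88 at -46 to -38 (TTCTCGGAA) and in Nod1 at -193 to -185 (TTCCAGGAA), and these did not overlap a decamer. For Myd88 and this promoter of Nod1 the table's transcript start also lies inside the GENCODE gene span given below. The other Nod1 promoter in the table held neither motif. These are matches of letters only, and 300 bases leave out more distant elements.

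With age, Cd14 and Tlr3 were higher and Tlr5 and Ly96 were lower at P24, while Tlr4, Tlr2, Nod1 and Myd88 differed by less. After IL-22, Cd14 and Tlr2 were higher, and the value of Tlr4 was higher without passing the test. Tests used limma on log2(TPM + 1) with adjustment over all genes tested and a threshold of 0.05, so a log2 fold change understates that of a low gene. A gene entered a fit with at least 1 TPM in at least 4 libraries (age) or 3 libraries (IL-22). 8 of the 10 genes entered each fit and Tlr9 and Nod2 did not, and Tlr5 entered the age fit only through its P14 libraries.

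**Figure D1:**
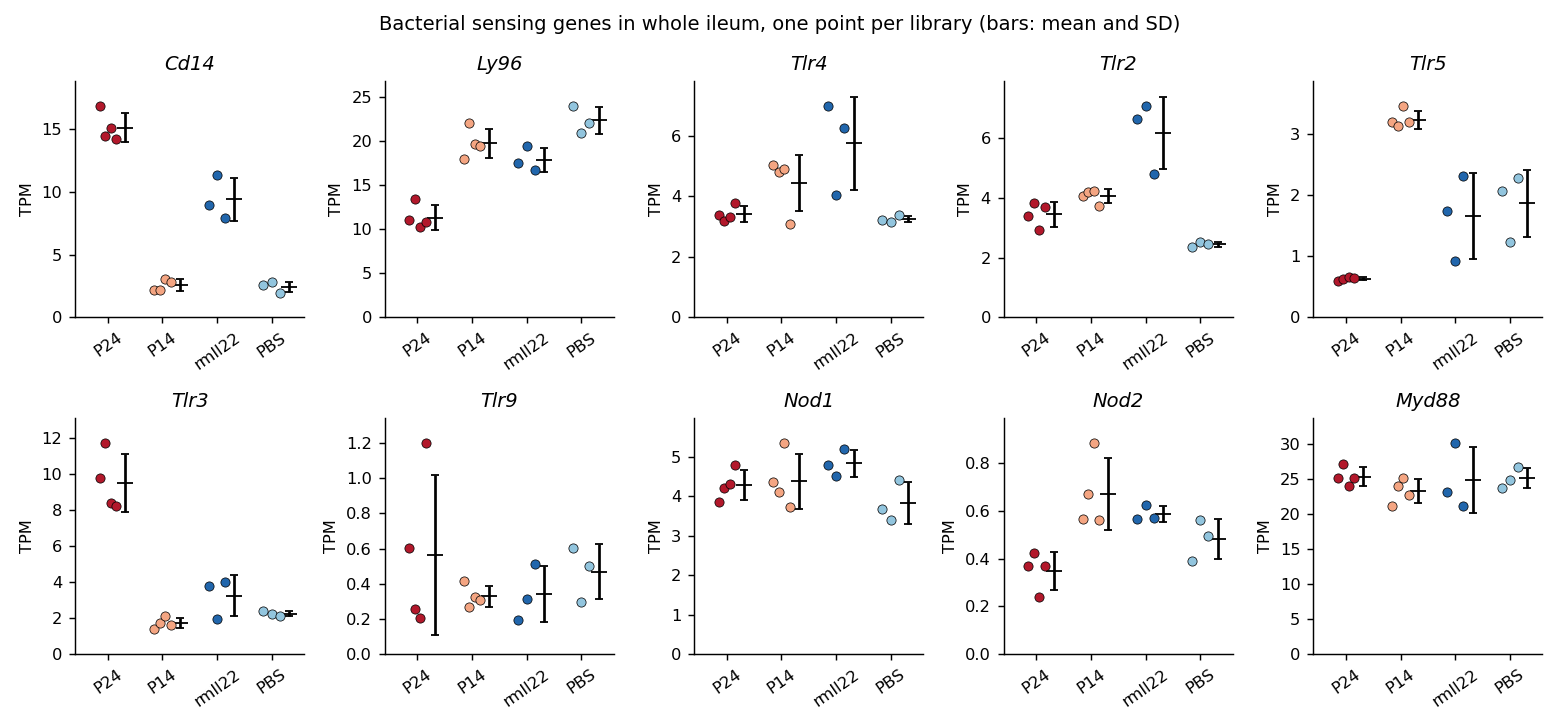
Level of each of the 10 genes in TPM (vertical axis, linear from 0, its own scale in each panel), with a point for each library and bars for the mean and SD, by group along the horizontal axis. The 4 P24 values of Cd14 sit between 14.2 and 16.8 TPM, above every other library, and the 4 P24 values of Tlr5 sit between 0.602 and 0.662 TPM, below every other library.

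CD14 is the lipopolysaccharide co-receptor, found in membrane-bound and soluble form. Cd14 had 16.8, 14.4, 15.1 and 14.2 TPM in the P24 libraries, against 2.21, 2.19, 3.07 and 2.85 TPM in the P14 libraries. All P24 values lay far above all P14 values, and they rested on 404 to 631 reads in P24 libraries and 77 to 110 reads in P14 libraries. The means were 15.1 ± 1.17 TPM at P24 and 2.58 ± 0.448 TPM at P14 (SD, n = 4 each), a ratio of 5.86. In log2 terms the change was 2.18 (SE 0.12, adjusted p = 3.32e-08 by limma), a call kept in all 17 alternatives. In bulk tissue, fewer or more cells of a type and less or more RNA per cell cannot be told apart, here or below.

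After IL-22, Cd14 had 8.97, 11.3 and 7.94 TPM in the rmIl22 libraries, against 2.55, 2.78 and 1.94 TPM in the PBS libraries. The groups did not overlap, and the mean was 9.39 ± 1.69 TPM after IL-22 and 2.42 ± 0.433 TPM after PBS (SD, n = 3 each), a ratio of 3.88. The log2 fold change was 1.60 (SE 0.17, adjusted p = 0.0110 by limma). The call was lost without PBS library 1 (adjusted p = 0.0605) and without PBS library 3 (adjusted p = 0.0815), with log2 fold changes of 1.63 and 1.49. Library 1 of the rmIl22 group, which like all PBS libraries had almost no Xist and which had 18.0 TPM of summed neutrophil markers, stood at 8.97 TPM of Cd14, against at most 2.78 TPM in the PBS libraries. That is the value of 1 library, and the part of sex or of neutrophils in the Cd14 level was not tested. Ordered by mean level, the groups ran P24, rmIl22, P14 and PBS, and only P14 and PBS overlapped. Cd14 lies on mm10 chromosome 18, 36725067 to 36726798, minus strand, and is protein coding.

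Ly96, which encodes the MD-2 subunit that holds lipopolysaccharide for TLR4, was lower at P24. It had 11.0, 13.4, 10.2 and 10.8 TPM in the P24 libraries, against 17.9, 22.0, 19.6 and 19.4 TPM in the P14 libraries. The groups were well apart, with means of 11.3 ± 1.40 TPM at P24 and 19.7 ± 1.68 TPM at P14 (SD, n = 4 each). This gave a log2 fold change of -0.75 (SE 0.11, adjusted p = 0.000115), kept in all 17 alternatives. After IL-22, Ly96 had 17.5, 19.4 and 16.7 TPM in the rmIl22 libraries, against 23.9, 20.9 and 22.0 TPM in the PBS libraries. These groups did not overlap either, but the difference did not pass the test (log2 fold change -0.30, 95% interval -0.56 to -0.05, adjusted p = 0.239). The gene lies on mm10 chromosome 1, 16688051 to 16709611, plus strand.

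Tlr4, the lipopolysaccharide receptor itself (mm10 chromosome 4, 66827584 to 66930284, plus strand), had 3.38, 3.19, 3.33 and 3.79 TPM in the P24 libraries, against 5.02, 4.79, 4.91 and 3.07 TPM in the P14 libraries. P14 library 5 lay below every P24 library and the other 3 P14 libraries above them. The log2 fold change was -0.29 (95% interval -0.59 to 0.02, adjusted p = 0.0999), and without P14 library 5 it was -0.42 (adjusted p = 0.00510). After IL-22, Tlr4 had 6.97, 4.04 and 6.24 TPM in the rmIl22 libraries, against 3.22, 3.16 and 3.37 TPM in the PBS libraries. Every rmIl22 value was above every PBS value, with rmIl22 library 2 closest to them. The log2 fold change was 0.64 (95% interval 0.20 to 1.08, adjusted p = 0.142). Without rmIl22 library 2, the library rich in neutrophil markers, it was 0.84 (adjusted p = 0.00691). That library also had the lowest summed fibroblast markers of its group (424 TPM, against 956 and 941 TPM). Its smooth muscle markers were lowest too (927 TPM, against 2976 and 1532 TPM). P14 library 5 had 1280 TPM of smooth muscle markers, against 2047 to 2695 TPM in the rest of its group. Fibroblast markers did not set it apart in the same way. They summed to 655 TPM in P14 library 5 and 659 TPM in P14 library 2, where Tlr4 was at 4.79 TPM. In P14 libraries 1 and 4 they summed to 868 and 1283 TPM. The part of these cells in the Tlr4 level was not tested.

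**Figure D2:**
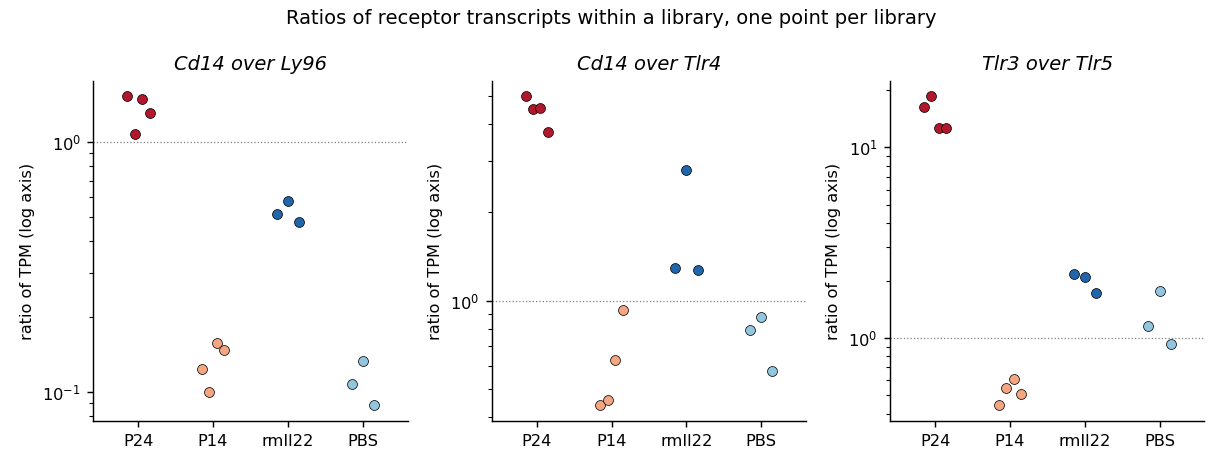
Ratio of TPM between 2 genes in the same library (vertical axis, log scale), with a point for each library, by group along the horizontal axis; the dotted line marks equal levels. Cd14 stood at 1.08 to 1.52 times Ly96 in the P24 libraries and at 0.0996 to 0.157 times Ly96 in the P14 libraries.

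The parts of the lipopolysaccharide receptor thus stood in different proportions in the 4 groups, which is given without a test because these ratios were chosen after the values were seen. TPM is corrected for gene length, so levels of different genes can be set side by side, but only as well as the lengths used. The annotation behind those lengths is not stated. Cd14 over Ly96 was 1.35 ± 0.203 at P24 and 0.132 ± 0.0256 at P14 (mean ratio ± SD, n = 4 each). It was 0.523 ± 0.0530 after IL-22 and 0.109 ± 0.0224 after PBS (n = 3 each). By the deposited TPM, Cd14 was above Ly96 in every P24 library and below it in all other libraries. In P24 library 2 the lead was only 1.08 times, and which gene is ahead there depends on the lengths used. Cd14 over Tlr4 was 4.44 ± 0.506 at P24 and 0.613 ± 0.227 at P14, and 1.78 ± 0.871 after IL-22 and 0.749 ± 0.157 after PBS. Cd14 exceeded Tlr4 in all P24 and rmIl22 libraries and in none of the P14 and PBS libraries. Ly96 exceeded Tlr4 in all 14 libraries, by 2.51 to 7.42 times.

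Tlr2 encodes the receptor for bacterial lipoproteins (mm10 chromosome 3, 83836272 to 83841767, minus strand). It had 3.38, 3.84, 2.91 and 3.68 TPM in the P24 libraries, against 4.06, 4.20, 4.23 and 3.72 TPM in the P14 libraries, and the groups overlapped (log2 fold change -0.19, 95% interval -0.43 to 0.06, adjusted p = 0.171). After IL-22, Tlr2 had 6.63, 7.06 and 4.78 TPM in the rmIl22 libraries, against 2.35, 2.52 and 2.47 TPM in the PBS libraries. The groups were apart, with means of 6.16 ± 1.21 TPM after IL-22 and 2.45 ± 0.0865 TPM after PBS (SD, n = 3 each), a ratio of 2.51. The log2 fold change was 1.04 (SE 0.16, adjusted p = 0.0225). The call was lost without PBS library 1 (adjusted p = 0.108), PBS library 2 (0.0790), PBS library 3 (0.133) or rmIl22 library 1 (0.0719), and with no filter on low TPM (0.0797), while the log2 fold change stayed between 0.95 and 1.19 with any 1 library left out. Library 2 of the rmIl22 group, rich in neutrophil markers, was the highest, and without it the log2 fold change was 0.95 (adjusted p = 0.0101). With a term for Xist in a fit of all 14 libraries it was 1.08 (adjusted p = 0.00121). That fit also draws on the untreated mice, so its lower p cannot be put down to the Xist term. The rmIl22 libraries also stood above all untreated libraries of both ages.

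Tlr5 encodes the receptor for flagellin, the protein of bacterial flagella (mm10 chromosome 1, 182954788 to 182976044, plus strand). It had 0.602, 0.631, 0.662 and 0.651 TPM in the P24 libraries, against 3.20, 3.13, 3.46 and 3.20 TPM in the P14 libraries. The spread within each age was small, and the P24 values rested on 54 to 72 reads. The mean was 0.636 ± 0.0264 TPM at P24 and 3.24 ± 0.144 TPM at P14 (SD, n = 4 each), so that the P24 level was 0.196 of the P14 level. By limma the log2 fold change was -1.37 (SE 0.11, adjusted p = 1.02e-06). Since every P24 value was under 1 TPM, the gene entered the fit only because it was higher at P14, and this p is no support for the difference. After IL-22, Tlr5 had 1.74, 0.916 and 2.32 TPM in the rmIl22 libraries, against 2.08, 1.24 and 2.29 TPM in the PBS libraries. These overlapped (log2 fold change -0.13, 95% interval -0.71 to 0.46, adjusted p = 0.890).

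Tlr3, the endosomal receptor for double-stranded RNA (mm10 chromosome 8, 45395665 to 45411080, minus strand), had 9.78, 11.7, 8.37 and 8.19 TPM in the P24 libraries, against 1.41, 1.70, 2.12 and 1.63 TPM in the P14 libraries. All P24 values were above all others in the study. The mean was 9.50 ± 1.60 TPM at P24 and 1.72 ± 0.293 TPM at P14 (SD, n = 4 each), a ratio of 5.54, with a log2 fold change of 1.95 (SE 0.13, adjusted p = 2.90e-07) that was called in all 17 alternatives. After IL-22, Tlr3 had 3.79, 1.92 and 4.02 TPM in the rmIl22 libraries, against 2.40, 2.20 and 2.12 TPM in the PBS libraries. Library 2 of the rmIl22 group lay below the PBS libraries and libraries 1 and 3 above them. The log2 fold change was 0.35 (95% interval -0.18 to 0.87, adjusted p = 0.564), and without rmIl22 library 2 it was 0.60 (adjusted p = 0.0377). In the GENCODE annotation of mm10, 381 of the 5207 exon bases of Tlr3 overlap the antisense gene Gm45542. The strand setting of the authors' counting is not stated in the sources at hand, so reads of these genes cannot be told apart there.

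Tlr3 and Tlr5 exchanged rank between the ages. Tlr3 over Tlr5 was 15.0 ± 2.89 at P24 and 0.527 ± 0.0706 at P14 (mean ratio ± SD, n = 4 each), with no overlap. It was 2.00 ± 0.234 after IL-22 and 1.28 ± 0.435 after PBS (n = 3 each), and these overlapped. The ratio was chosen after the values were seen and was not tested.

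Tlr9 encodes the endosomal receptor for unmethylated CpG DNA (mm10 chromosome 9, 106222598 to 106226883, plus strand) and was low in all libraries. It had 0.601, 0.257, 0.203 and 1.20 TPM in the P24 libraries, against 0.413, 0.270, 0.322 and 0.305 TPM in the P14 libraries. The P24 values spread on both sides of the P14 values and rested on 16 to 88 reads (exact permutation test, two-sided, p = 0.429). In P24, libraries 8 and 1 were highest, and the same libraries had the highest sums of the 7 B and plasma cell markers, at 124 and 171 TPM, against 41.7 TPM in library 2 and 27.7 TPM in library 6. The part of these cells in the Tlr9 level was not tested. After IL-22, Tlr9 had 0.193, 0.315 and 0.511 TPM in the rmIl22 libraries, against 0.604, 0.298 and 0.503 TPM in the PBS libraries (exact permutation p = 0.500, where the smallest possible is 0.100).

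Nod1 encodes a cytosolic sensor of peptidoglycan fragments common in Gram-negative bacteria (mm10 chromosome 6, 54923949 to 54972612, minus strand). It had 3.86, 4.21, 4.30 and 4.79 TPM in the P24 libraries, against 4.35, 4.11, 5.35 and 3.73 TPM in the P14 libraries. The groups overlapped, with a log2 fold change of -0.02 (95% interval -0.28 to 0.24, adjusted p = 0.895), and the sign turned with scaling to the median gene (0.22, adjusted p = 0.0301). After IL-22, Nod1 had 4.79, 4.52 and 5.21 TPM in the rmIl22 libraries, against 3.67, 3.41 and 4.41 TPM in the PBS libraries. The groups were narrowly apart and the difference did not pass the test (log2 fold change 0.28, 95% interval -0.03 to 0.59, adjusted p = 0.391).

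Nod2, which encodes the sensor of muramyl dipeptide (mm10 chromosome 8, 88647315 to 88688474, plus strand), stayed under 1 TPM throughout. It had 0.367, 0.424, 0.237 and 0.368 TPM in the P24 libraries, against 0.565, 0.669, 0.884 and 0.561 TPM in the P14 libraries. All P24 values were below all P14 values, on 27 to 44 reads at P24 and 67 to 91 reads at P14. An exact permutation test gave p = 0.0286, the smallest that 4 against 4 libraries allow, and limma with no filter on low TPM gave a log2 fold change of -0.31 (adjusted p = 0.0209). After IL-22, Nod2 had 0.564, 0.626 and 0.571 TPM in the rmIl22 libraries, against 0.391, 0.560 and 0.495 TPM in the PBS libraries. The groups were apart by the margin between 0.564 and 0.560 TPM (exact permutation p = 0.100, the smallest that 3 against 3 allow).

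Myd88, the shared adaptor (mm10 chromosome 9, 119335934 to 119341411, minus strand), was the most abundant of the 10 transcripts at P24. It had 25.2, 27.2, 24.0 and 25.2 TPM in the P24 libraries, against 21.2, 24.0, 25.2 and 22.8 TPM in the P14 libraries (log2 fold change 0.12, 95% interval -0.08 to 0.32, adjusted p = 0.265). After IL-22 it had 23.2, 30.2 and 21.2 TPM in the rmIl22 libraries, library 2 with its neutrophil markers being the highest, against 23.8, 24.9 and 26.8 TPM in the PBS libraries (log2 fold change -0.03, 95% interval -0.38 to 0.31, adjusted p = 0.963). In both comparisons the groups overlapped. Of its 2576 exon bases, 290 overlap Acaa1a on the opposite strand, which averaged 41.5 TPM in P24 libraries and 28.0 TPM in P14 libraries, so a share of the reads is uncertain.

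**Figure D3:**
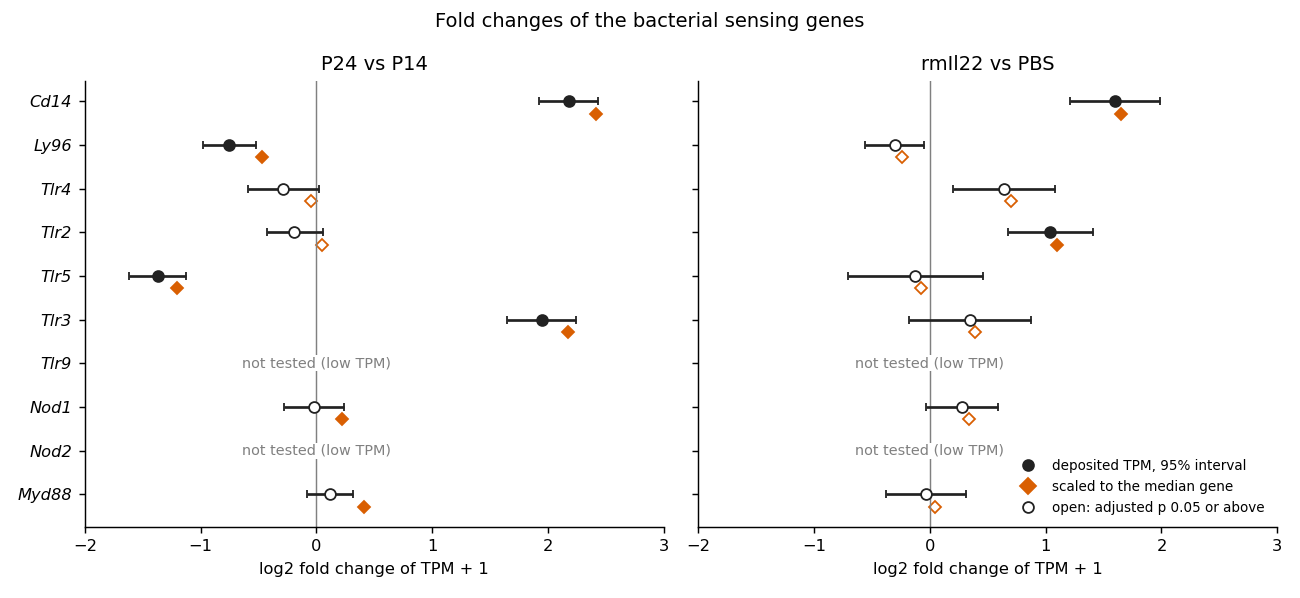
Log2 fold change of TPM + 1 for each gene (horizontal axis) in P24 against P14 libraries (left) and rmIl22 against PBS libraries (right). Circles are the deposited TPM with 95% intervals, diamonds the TPM scaled to the median gene, and filled symbols passed an adjusted p of 0.05; Cd14 is the gene filled on the right of 0 in both panels, at 2.18 and 1.60.

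Read against all genes, the age comparison moved much of the transcriptome. At the threshold, 58.3% of the 14651 genes tested were called, 14.6% as higher and 43.7% as lower at P24, and 9248 genes had an unadjusted p under 0.05. Among the 8 tested members, 2 were called higher (Cd14 and Tlr3) and 2 lower (Tlr5 and Ly96), where Tlr5 was tested only through its P14 libraries. The share of members called is thus near that of all genes. The median tested gene had a log2 fold change of -0.25 in this comparison. After scaling to the median gene, 28.9% of genes were called higher and 28.9% lower, and the higher calls made up 50.0% of all calls, against 25.1% with the deposited TPM. On that scale Cd14 was at 2.42, Tlr3 at 2.17, Ly96 at -0.47 and Tlr5 at -1.20, all still called. Myd88 (0.41, adjusted p = 0.000771) and Nod1 (0.22, adjusted p = 0.0301) were then called higher as well, while Tlr4 (-0.05, adjusted p = 0.716) and Tlr2 (0.05, adjusted p = 0.609) did not pass.

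In the IL-22 comparison, 2.69% of the 14456 genes tested were called, 0.443% as higher and 2.25% as lower, and 2235 genes had an unadjusted p under 0.05. The median gene was at -0.05, and with scaling to it the higher calls made up 24.0% of all calls, against 16.5%. Among the 8 tested members 2 were called higher, Cd14 and Tlr2, and 0 were called lower by limma. At an unadjusted p under 0.05 by limma, 1 member was lower, Ly96. None was called lower under any of the 16 alternatives, voom among them. The members were picked with these results known, so their share says nothing about sensing genes in general.

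The 2 effects were set against each other by the contrast of the age effect minus the IL-22 effect in a fit of all 14 libraries, where 23.8% of 15702 genes passed. The comparisons share no libraries. The difference passed for 6 of the 8 tested members. For Tlr3 the age effect was the higher (difference 1.60, SE 0.25, adjusted p = 0.000634). For Tlr2 (-1.22, SE 0.17, adjusted p = 0.000264) and Tlr4 (-0.93, SE 0.23, adjusted p = 0.0114) the IL-22 effect was the higher. For Tlr5 the age effect was the lower (-1.25, SE 0.24, adjusted p = 0.00292). For Cd14 the difference was 0.58 (95% interval 0.17 to 0.99, adjusted p = 0.0428) and for Ly96 -0.45 (95% interval -0.76 to -0.13, adjusted p = 0.0417). Both of these were lost in most of the 16 alternatives, with adjusted p from 0.0117 to 0.115 for Cd14 and from 0.0199 to 0.345 for Ly96. With any 1 library left out, 4 to 6 members passed. Nod1 (-0.30, 95% interval -0.66 to 0.06) and Myd88 (0.15, 95% interval -0.18 to 0.49) did not pass.

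The PBS mice were not a repeat of the P14 group, since they were 2 days older and had been injected. Xist differed too, being low in all 3 PBS libraries and at 40.5 and 47.0 TPM in P14 libraries 5 and 4, and age, injection and sex cannot be told apart here. Tlr2 averaged 2.45 TPM after PBS and 4.05 TPM at P14, Tlr5 1.87 and 3.24 TPM, and Nod2 0.482 and 0.670 TPM, with PBS lower and no overlap in each, for Nod2 by the margin between 0.560 TPM in the highest PBS library and 0.561 TPM in the lowest P14 library. Tlr3 averaged 2.24 TPM after PBS and 1.72 TPM at P14, and the lowest PBS and highest P14 value were both 2.12 TPM. Cd14 overlapped, at 2.42 TPM after PBS and 2.58 TPM at P14. The share of all genes that did not overlap between PBS and P14 was not worked out, so nothing is read from how many members did not. For Tlr2 the order of group means was rmIl22, P14, P24 and PBS, and only P14 and P24 overlapped. For Tlr5 it was P14, PBS, rmIl22 and P24, where PBS and rmIl22 overlapped. For Tlr3 it was P24, rmIl22, PBS and P14, where rmIl22 and PBS overlapped, and for Tlr4, Tlr9, Nod1 and Myd88 each group overlapped its neighbour in the order of means.

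The other genes of the pathways were read from 8 lists of 79 genes, which were also drawn up with earlier results known. In the age comparison, 25 of the 62 genes tested were called higher at P24, 9 lower and 28 neither, beside 14.6% higher and 43.7% lower among all genes. With scaling to the median gene, 34 were higher and 6 lower, beside 28.9% each among all genes. In the IL-22 comparison, limma called 2 of 64 tested genes higher, 0 lower and 62 neither, as did voom on the recovered reads. Among all genes limma called 0.443% higher and 2.25% lower. At an unadjusted p under 0.05, 10 were higher and 5 lower. In a limma fit of all 14 libraries, Tlr1 (adjusted p = 0.0257), Relb (0.0179) and Casp4 (0.0268) also passed as higher after IL-22. Tlr12 passed there as lower (0.0437). Both of the genes called higher in the main IL-22 fit, Card9 and Pglyrp1, were also higher at P24.

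**Figure D4:**
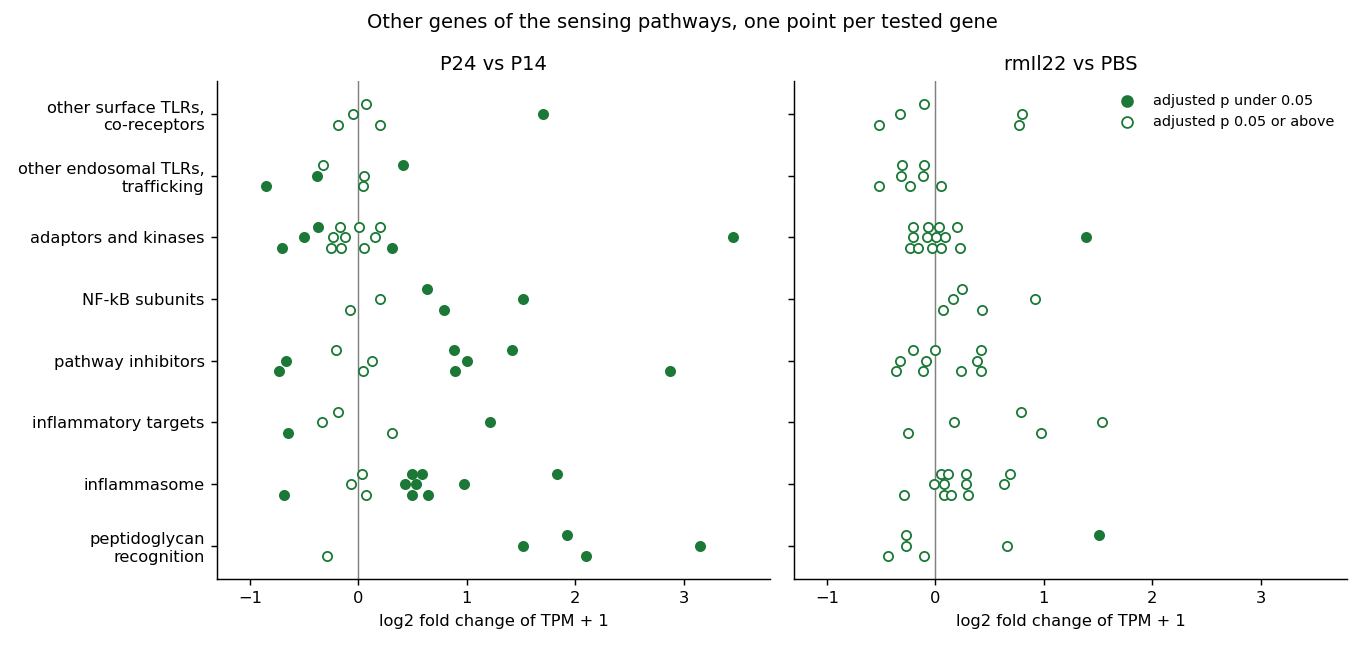
Log2 fold change of TPM + 1 (horizontal axis, same range in both panels) of each tested gene of the 8 pathway lists (rows), in P24 against P14 libraries (left) and rmIl22 against PBS libraries (right). Filled points passed an adjusted p of 0.05; 25 are filled on the right of 0 in the age panel and 2 in the IL-22 panel.

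Among other surface receptors and co-receptors, 1 of 5 tested genes was called with age, and the list's median was 0.07, against -0.25 for all genes. This was Tlr1, the partner of TLR2 for triacylated lipopeptides, at 6.29 ± 1.26 TPM in P24 libraries and 1.24 ± 0.427 TPM in P14 libraries (SD, n = 4 each; log2 fold change 1.70, adjusted p = 6.43e-06). After IL-22, Tlr1 had 5.37, 4.10 and 2.91 TPM in the rmIl22 libraries, against 1.91, 1.78 and 1.94 TPM in the PBS libraries, which did not overlap and did not pass the test (0.80, adjusted p = 0.0834). Of 6 tested genes of endosomal receptors and their trafficking, 1 was higher and 2 lower at P24 (median -0.14). Unc93b1, the chaperone that carries endosomal TLRs, was at 27.8 ± 4.85 TPM in P24 libraries and 20.5 ± 1.71 TPM in P14 libraries (0.41, adjusted p = 0.0166), and its call was lost without P24 library 1 (adjusted p = 0.0553). Cnpy3, a folding chaperone of TLRs, was at 16.3 ± 1.55 TPM in P24 libraries and 30.2 ± 3.84 TPM in P14 libraries (-0.85, adjusted p = 5.56e-05).

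Of 14 tested adaptors and kinases, 2 were higher and 3 lower at P24 (median -0.14), and 6 were higher and 2 lower after scaling to the median gene. Card9, an adaptor of C-type lectin receptors that also serves NOD2, had the largest rise, with 18.9 ± 4.65 TPM at P24 and 0.795 ± 0.149 TPM at P14 (log2 fold change 3.45, adjusted p = 6.86e-09). All its P14 values were under 1 TPM, so it entered the age fit only through the P24 libraries and had to differ. It had 4.58, 3.76 and 4.13 TPM in the rmIl22 libraries, against 1.14, 1.09 and 0.689 TPM in the PBS libraries (1.39, adjusted p = 0.0125). The IL-22 call of Card9 was lost without PBS library 1 (adjusted p = 0.0605) and without PBS library 3 (0.0815). Irak2, a kinase-like protein downstream of MYD88, had the largest fall, with 26.5 ± 1.96 TPM at P24 and 43.7 ± 3.53 TPM at P14 (-0.70, adjusted p = 7.40e-05).

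All 3 called NF-kB subunits of 5 tested were higher at P24 (median 0.63), and all 5 after scaling to the median gene. Relb, a subunit of the non-canonical pathway, was at 52.7 ± 7.39 TPM in P24 libraries and 17.8 ± 3.18 TPM in P14 libraries (1.52, adjusted p = 2.98e-06). The others, named after their values were seen, were Nfkb2 (0.79) and Rel (0.63). Of 10 tested inhibitors of the pathway, 5 were higher and 2 lower at P24 (median 0.50). Atf3, a transcription factor that represses cytokine genes, was at 122 ± 27.2 TPM in P24 libraries and 16.1 ± 4.67 TPM in P14 libraries (2.87, adjusted p = 6.91e-07). Tollip, which restrains IRAK kinases, was at 54.3 ± 3.55 TPM in P24 libraries and 90.9 ± 10.9 TPM in P14 libraries (-0.73, adjusted p = 0.000110). After IL-22 Relb did not pass, at 36.2 ± 12.6 TPM after IL-22 and 17.9 ± 0.228 TPM after PBS (0.92, adjusted p = 0.115), and without rmIl22 library 2, its log2 fold change was 1.21 (adjusted p = 0.00157).

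Of 12 tested inflammasome genes, 8 were higher and 1 lower at P24 (median 0.49). Il18, a cytokine cleaved by caspase-1, was at 108 ± 49.6 TPM in P24 libraries and 28.4 ± 7.63 TPM in P14 libraries (1.83, adjusted p = 0.000172). Naip1, a sensor of the bacterial type III secretion needle, was at 111 ± 13.8 TPM in P24 libraries and 181 ± 31.3 TPM in P14 libraries (-0.69, adjusted p = 0.000942), and the Naip genes are close copies, so their reads may be split unevenly. Of 12 inflammatory target genes 5 were tested, and Tnf was higher and Icam1 lower at P24. Tnf was at 2.72 ± 0.772 TPM in P24 libraries and 0.589 ± 0.199 TPM in P14 libraries (1.21, adjusted p = 7.64e-05), and with all P14 values under 1 TPM it too entered only through the P24 libraries. Icam1, an adhesion molecule, was at 6.71 ± 2.08 TPM in P24 libraries and 10.8 ± 1.45 TPM in P14 libraries (-0.65, adjusted p = 0.00957), a call lost with scaling to the median gene (-0.39, adjusted p = 0.0731).

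In the list of peptidoglycan recognition proteins and peptide transport, 5 genes were tested and 4 were higher at P24. Of the recognition proteins only Pglyrp1 was tested, and the other 4 genes were Slc15a1, Slc15a2, Lyz1 and Lyz2. The list's median, 1.92, was the value of Slc15a1, which encodes an intestinal transporter of small peptides. Lyz1, the lysozyme of Paneth cells, was at 4498 ± 218 TPM in P24 libraries and 525 ± 167 TPM in P14 libraries (3.15, adjusted p = 9.50e-08). Pglyrp1, a secreted peptidoglycan-binding protein, was at 88.5 ± 8.41 TPM in P24 libraries and 19.9 ± 2.13 TPM in P14 libraries, and at 102, 81.7 and 61.6 TPM in the rmIl22 libraries, against 28.5, 31.5 and 23.0 TPM in the PBS libraries (log2 fold changes 2.10 and 1.51, adjusted p = 1.92e-08 and 0.0171). The IL-22 call of Pglyrp1 was lost with no filter on low TPM (adjusted p = 0.0597) and without PBS library 1, 2 or 3 (0.0828, 0.0503 and 0.117). Lyz1 did not pass after IL-22, at 1369 ± 235 TPM, against 1653 ± 269 TPM after PBS (-0.27, adjusted p = 0.609).

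Markers of the cell types that whole ileum holds were measured beside the members. The 12 macrophage and monocyte markers summed to 208 to 254 TPM in P24 libraries and 252 to 311 TPM in P14 libraries. They summed to 289 to 340 TPM in rmIl22 libraries and 338 to 412 TPM in PBS libraries. Csf1r, the growth factor receptor of macrophages, was at 15.4 ± 1.94 TPM in P24 libraries and 61.0 ± 6.16 TPM in P14 libraries (log2 fold change -1.92, adjusted p = 7.74e-08), and at 33.7 ± 5.42 TPM after IL-22 and 76.6 ± 8.52 TPM after PBS (-1.16, adjusted p = 0.0151; lost without PBS library 1, 0.0828, or 3, 0.107). Of 11 tested macrophage markers, 2 were called higher, 3 lower and 6 neither at P24, and 1, Csf1r, was called lower after IL-22. With age, Csf1r had the largest called fall and Itgam the largest called rise. The call of Itgam was lost in a fit of all 14 libraries with a term for Xist (adjusted p = 0.0717). Among those not called, Adgre1 was at 9.84 ± 1.10 TPM in P24 libraries and 9.70 ± 1.85 TPM in P14 libraries. C1qa, not called either, was at 69.6 ± 9.19 and 66.8 ± 8.96 TPM. Among all genes, 14.6% were called higher and 43.7% lower at P24, and 2.25% lower after IL-22. The list's median with age was 0.03, against -0.25 for all genes, and after scaling to the median gene 5 were higher and 3 lower. The 7 epithelial markers summed to 8567 to 11058 TPM in P24 libraries and 4367 to 5610 TPM in P14 libraries, and to 5161 to 8064 TPM in rmIl22 libraries and 5471 to 6437 TPM in PBS libraries. Of these 7, 3 were called higher at P24, 0 lower and 4 neither (median 0.35), and 5 were higher after scaling to the median gene. None of the epithelial markers was called after IL-22. The 6 Paneth cell markers summed to 19238 to 20321 TPM at P24 and 4036 to 5842 TPM at P14, all 6 of them called higher. Every marker of these 3 lists had reads in at least 1 library of each group, and the neutrophil marker Ly6g had 0 reads in all P14 libraries. The part of cell composition in the members' levels was not tested.

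Across the 14 libraries and 15702 genes, the genes most like Cd14 and the tested TLR genes were listed by Pearson's r of log2(TPM + 1), as a description. The libraries fall into 4 groups, so genes with similar differences between groups score high. For Cd14 these were Gm28512, Lpcat4, Zc3h12a, 1700066B19Rik and Reg3g, with r from 0.97 to 0.98. Reg3g, an antibacterial lectin of the epithelium, was at 14281 ± 3614 TPM in P24 libraries and 72.2 ± 11.3 TPM in P14 libraries, and at 5321 ± 2743 TPM after IL-22 and 243 ± 183 TPM after PBS. Zc3h12a, an RNase that degrades cytokine transcripts, was at 19.7 ± 1.90 TPM in P24 libraries and 3.91 ± 0.747 TPM in P14 libraries, and at 11.6 ± 3.42 TPM after IL-22 and 4.38 ± 0.115 TPM after PBS. For Tlr3 they were Arhgef2, Pax8, Rdh16, Cobl and Snph (0.98 to 0.99). Cobl, an actin nucleator of microvilli, was at 37.4 ± 5.50 TPM in P24 libraries and 6.53 ± 1.08 TPM in P14 libraries. For Tlr5 they were Serf1, Hoga1, Zmynd8, Nicn1 and Fgb (0.97 each), and Serf1 was at 14.1 ± 1.57 TPM in P24 libraries and 39.7 ± 1.55 TPM in P14 libraries.

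For Tlr4 the nearest genes were Nudt19, Slc2a13, Pdgfc, Pparg and Kcnh2 (0.88 to 0.94). Pparg, a nuclear receptor, was at 7.56 ± 0.548 TPM in P24 libraries and 8.16 ± 1.06 TPM in P14 libraries, and at 13.5 ± 5.52 TPM after IL-22 and 7.69 ± 0.282 TPM after PBS. For Tlr2 they were Dusp14, Gm24647, Nbeal2, Abcc4 and Nupl2 (0.78 to 0.85), and Dusp14, a phosphatase, was at 11.6 ± 0.493 TPM after IL-22 and 5.22 ± 0.497 TPM after PBS. Gm24647 rested on 0 to 5 reads in a library, so its place in this list is uncertain. Among the members, Cd14 ran with Tlr3 (r = 0.86) and opposite to Ly96 and Tlr5 (-0.85 each), and Tlr4 ran with Tlr2 (0.70) and Nod1 (0.70).

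The authors' deposited tables of comparisons give log2 fold changes and adjusted p-values of their own, with no replicate values. In the authors' deposited table for age, Cd14 was at 2.87, Tlr3 at 2.80 and Tlr5 at -2.03. The authors' deposited table also gave Ly96 at -0.49, Nod2 at -0.62 (adjusted p = 0.0179), Myd88 at 0.44 (adjusted p = 0.00525) and Nod1 at 0.29 (adjusted p = 0.00505). There Tlr2 was at 0.08, Tlr4 at -0.05 and Tlr9 at 1.06 (adjusted p = 0.0636). The authors' deposited table for IL-22 lists 1102 genes, and of the members it holds Cd14 (1.98, adjusted p = 1.15e-14), Tlr2 (1.37, adjusted p = 2.61e-11), Tlr4 (0.84, adjusted p = 3.89e-05) and Nod1 (0.38, adjusted p = 0.00782). Of the pathway lists it holds Cxcl1 (3.25), Card9 (2.10), Pglyrp1 (1.59), Lbp (1.18), Tlr1 (1.17), Relb (1.02), Casp4 (0.68) and Nfkb2 (0.49). It lists no adjusted p above 0.00999, while the authors' table for age has 23529 entries and no such limit. Other members can therefore be absent from the IL-22 table with an adjusted p under 0.05. For IL-22, Tlr4 and Nod1 thus passed in the authors' deposited table and did not pass by limma on TPM. For age, Myd88 and Nod1 likewise passed in the authors' deposited table and did not pass by limma on the deposited TPM.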

How the data were processed

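RNA was sequenced from whole ileum in 14 libraries made from total RNA depleted of ribosomal RNA with a strand-specific kit, per the labels' protocols. The deposited expression table gives TPM for each symbol in each library. Tools listed in the submitters' processing notes are FastQC 0.11.2, STAR 2.4.0f, HTSeq 0.6.1p1 and DESeq2 1.14, with genome mm10; their roles, the annotation and the strand setting are not stated in the sources at hand. Of 46882 entries, 27 turned into date numbers were left out. The columns of the untreated groups carry numbers other than the labels' replicates, so each was assigned to its group only. The authors' deposited comparison tables, with log2 fold changes and adjusted p-values, write decimal commas, read as points.

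Whole reads were recovered from the TPM, taking for each gene the lowest integers that keep the ratios of its values, for all 31189 genes with any value (within 0.01 of a whole number). A gene whose reads share a common factor can be undercounted. The recovered totals were 35.6 to 46.5 M (median 42.7 M), and counting error alone limits values that rest on few reads. Libraries of a group differed far beyond sampling noise (chi-square per degree of freedom 28.3 to 233).

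Comparisons were tested on log2(TPM + 1) with limma 3.58.1 (R 4.3.3, trended prior variance), on the libraries of each comparison, two-sided, with Benjamini-Hochberg adjustment over all genes tested (threshold 0.05). Genes needed at least 1 TPM in at least 4 libraries (age) or 3 (IL-22, and the contrast over all 14). The code of the test was run on simulated reads with 200 genes changed by known folds and the same spread for every gene. That checks the code and says nothing about the calls in these libraries. Genes below the filter had exact permutation tests. The members, gene lists and tests were chosen with earlier results of these data known. Named genes are the members, the largest called rise and fall of each list, and the 5 genes most like Cd14 and each tested TLR gene. Alternatives were a pseudocount of 0.1, no filter, 2 other scalings, a fit of all 14 libraries, no trend, voom on recovered reads, each library left out, and a replicate block; voom scaled to the median gene and a term for Xist were added after seeing the data. Protein sequences were not used here, so the planned comparison of receptor proteins was not run. Positions are from GENCODE on mm10 and promoters from RefSeq on GRCm38.p6.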

Additional observations from a re-analysis of the deposited data

Results flagged for a closer look

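In the P14 group, library 5 stood apart for Tlr4, with 3.07 TPM, against 4.79 to 5.02 TPM in the other 3 libraries. The gap between library 5 and the nearest of the others was 0.880 of the group's whole range. Of the 10 members, 20 groups of 4 libraries were looked at (P24 and P14), and chance flags about 1 in 20 such groups. Groups of 3 libraries were not looked at.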

How the results depend on the processing

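For the age comparison, 2 members were called lower and 2 higher. With TPM scaled to the median gene, with quantile normalisation and with median-scaled voom of the recovered reads, 4 were called higher, as Myd88 and Nod1 joined, and voom without that scaling called 3, with Myd88 (0.18, adjusted p = 0.0388). Nod1 changed sign there, with log2 fold changes of 0.22, 0.25 and 0.27. No paired analysis was made for the age comparison, since the groups are different mice and the labels pair none of them. For IL-22, where 389 genes were called, 98 were called with no filter on low TPM, 1058 in a fit of all 14 libraries and 858 with a term for Xist. Leaving out 1 library gave 4 (without PBS library 3) to 1309 (without rmIl22 library 2). The members called higher were 2, with 1 when no filter was used and 0 to 4 with 1 library left out. The adjusted p of Cd14 after IL-22 ran from 3.49e-05 to 0.0815 and that of Tlr2 from 0.000305 to 0.133; Tlr4 passed in the fit of all 14 libraries (0.0387) and with the Xist term (0.0239). With the replicate block, 280 genes and the same count of 2 members were called; the numbers did not pair the libraries (correlation of deviations -0.07, 0.33 and -0.05 for equal numbers, and up to 0.40 for unequal ones). Of 392 alternatives of single-gene results, 352 kept their side of the threshold with no called value changing sign. Values that did not pass could change sign, as those of Tlr2 with age (up to 0.08) and of Tlr5 (up to 0.09) and Myd88 (up to 0.07) after IL-22 did. The cause of these changes was not tested. At 14 to 91 reads per library, Tlr9 and Nod2 are limited by depth.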

Other observations

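Markers of other cell types of the ileum also differed with age. All 5 endothelial markers and 5 of 6 fibroblast markers were called lower at P24 by limma, with list medians of -0.80 and -0.90 on the log2 scale, against -0.25 for all genes, and the counts were the same after scaling to the median gene. Among all genes, 43.7% were called lower, and 28.9% after that scaling. The endothelial markers summed to 24.4 to 30.2 TPM in P24 libraries and 42.4 to 64.5 TPM in P14 libraries. The 7 B and plasma cell markers summed to 27.7 to 171 TPM in P24 libraries and 3.59 to 25.8 TPM in P14 libraries, with 2 of 7 called higher. After IL-22, of the 59 tested genes of all 10 marker lists, Csf1r alone was called by limma, beside 2.69% of all genes. At an unadjusted p under 0.05 by limma, 3 of the markers were higher and 4 lower. These lists were drawn up with earlier results of these data known.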
